A study of Mus musculus with 2 samples.

Results

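The genes described here are 28 genes of cholesterol synthesis, its control and cholesterol uptake, chosen by name and not by their values. All 28 are columns of both deposited count tables, which together list 25595 genes. They comprise 7 enzymes of the mevalonate steps, 11 enzymes from squalene to cholesterol, 5 regulators and 5 genes of uptake, transport and storage. Their levels are described across the stages of the oligodendrocyte lineage and the other cell types of each library.

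The study sorted cells of the mouse cerebral cortex with its meninges by magnetic beads against CD140a, the protein product of Pdgfra, and profiled them with the BD Rhapsody whole-transcriptome system. Its 2 libraries are 1 from N-PRα-KO mice (Nestin-Cre;Pdgfraflox/flox) and 1 from WT mice (C57BL/6J), and its stated question concerns activated fibroblasts in a hypomyelinated cortex. Nestin-Cre recombines floxed alleles in neural stem and progenitor cells and their descendants, so cells outside the neural lineage, such as meningeal fibroblasts and microglia, are not its intended target. Age, sex and how many animals were pooled are not in the sources used here, nor do these say that the WT mice carry Cre or the floxed allele.

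N-PRα-KO had 41982217 UMIs (unique molecules) in 8336 barcodes and WT 43459947 UMIs in 11438 barcodes. A filter of 300 or more genes per cell and no more than 25% mitochondrial UMIs kept 50.3% of N-PRα-KO and 88.0% of WT barcodes, and 105 barcodes occurred in both libraries. After removal of doublet calls 4186 N-PRα-KO cells (median 5781 UMIs) and 9895 WT cells (median 3264 UMIs) remained. In WT, 3681 non-dividing and 1169 dividing precursors, 100 committed and 49 myelinating cells were found, against 52, 4, 2 and 7 in N-PRα-KO, and 50 of the 52 N-PRα-KO precursors formed a sub-cluster of their own that held 5 WT cells. Summed Pdgfra was 5204 CPM in WT and 3522 CPM in N-PRα-KO precursors, where CPM is a gene's UMIs for each 1000000 UMIs of the same cells. The labels do not say which exons are floxed, so these end counts do not check the deletion. In the other WT types with no oligodendrocyte identity, fibroblasts aside, Pdgfra lay between 133 and 288 CPM, against 23.9 to 107 CPM in N-PRα-KO. Free RNA in the wells can give a cell type such low levels of a gene, and its part in the low values given here was not tested.

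Cells make cholesterol from acetyl-CoA by way of mevalonate, isoprenoid units, squalene and lanosterol. When membrane sterol is low, the transcription factor made by Srebf2 is carried from the endoplasmic reticulum by its escort Scap, is cut in the Golgi, and turns on nearly every gene of the route, while Insig1 and Insig2 hold Scap back when sterol is plentiful. Brain cholesterol is made locally because lipoproteins of the blood do not cross the blood-brain barrier, and myelin membrane is the main cholesterol store of the brain.

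The SREBP factors bind sterol elements next to CCAAT boxes, which bind the factor NF-Y, so promoters were searched for these letters. RefSeq promoter windows (GRCm38.p6, 250 bases upstream of the start) were matched for 23 of the 28 genes, and both strands were searched. TCACNCCA, a form of the sterol element, was in 3 of the 23 genes (13%), Hmgcs1, Msmo1 and Srebf2, and in 4.20% of all genes with a window. CCAAT was in 20 of 23 (87.0%) and in 37.5% of all genes. The 3 promoters with the sterol letters are shown because they hold both motifs, with the sterol letters and each CCAAT box, on either strand, in capitals. Srebf2 is no enzyme and was added after its match was seen.
Hmgcs1, chr13:119690104-119690320, plus strand: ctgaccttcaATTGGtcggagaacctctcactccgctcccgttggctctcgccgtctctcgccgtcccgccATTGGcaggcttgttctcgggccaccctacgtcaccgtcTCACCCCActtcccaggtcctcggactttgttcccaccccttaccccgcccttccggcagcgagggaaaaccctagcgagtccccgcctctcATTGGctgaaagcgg
Msmo1, chr8:64733619-64733765, minus strand: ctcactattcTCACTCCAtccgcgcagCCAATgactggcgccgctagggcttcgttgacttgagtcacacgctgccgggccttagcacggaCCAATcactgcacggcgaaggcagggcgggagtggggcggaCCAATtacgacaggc
Srebf2, chr15:82147097-82147148, plus strand: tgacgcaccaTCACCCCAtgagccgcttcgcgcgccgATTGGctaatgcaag
The sterol letters begin 137 bases before the RefSeq start in Hmgcs1, 177 bases before it in Msmo1 and 162 bases before it in Srebf2. Other annotation can place the start elsewhere. In GENCODE M21 Msmo1 starts at base 64733792 on the minus strand, so the Msmo1 stretch lies inside that gene. Hmgcs1 and Msmo1 hold 3 CCAAT boxes each in the stretch shown, and Srebf2 holds 1. A match to these letters is a description of the sequence and not evidence of binding in these cells.

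Summed over the 18 enzymes, myelinating oligodendrocytes stood highest and astrocytes next in both libraries. In WT the enzymes made up 7872 CPM of myelinating cells (95% Poisson interval 7653 to 8096), 4320 CPM of astrocytes, 2228 CPM of committed cells (2116 to 2344) and 1841 CPM of precursors (1817 to 1865). Dividing WT precursors were at 1723 CPM, and the WT types outside the lineage, astrocytes aside, lay between 409 CPM in fibroblasts and 933 CPM in the neuronal lineage. In N-PRα-KO the sum was 5933 CPM in the 7 myelinating cells (5593 to 6288), 3295 CPM in astrocytes, 1276 CPM in precursors (1151 to 1411) and between 319 CPM in microglia and 729 CPM in ependymal cells elsewhere. Each library is 1 sample, so no test was made, and all intervals cover counting error only and say nothing of the spread between animals.

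**Figure D1:**
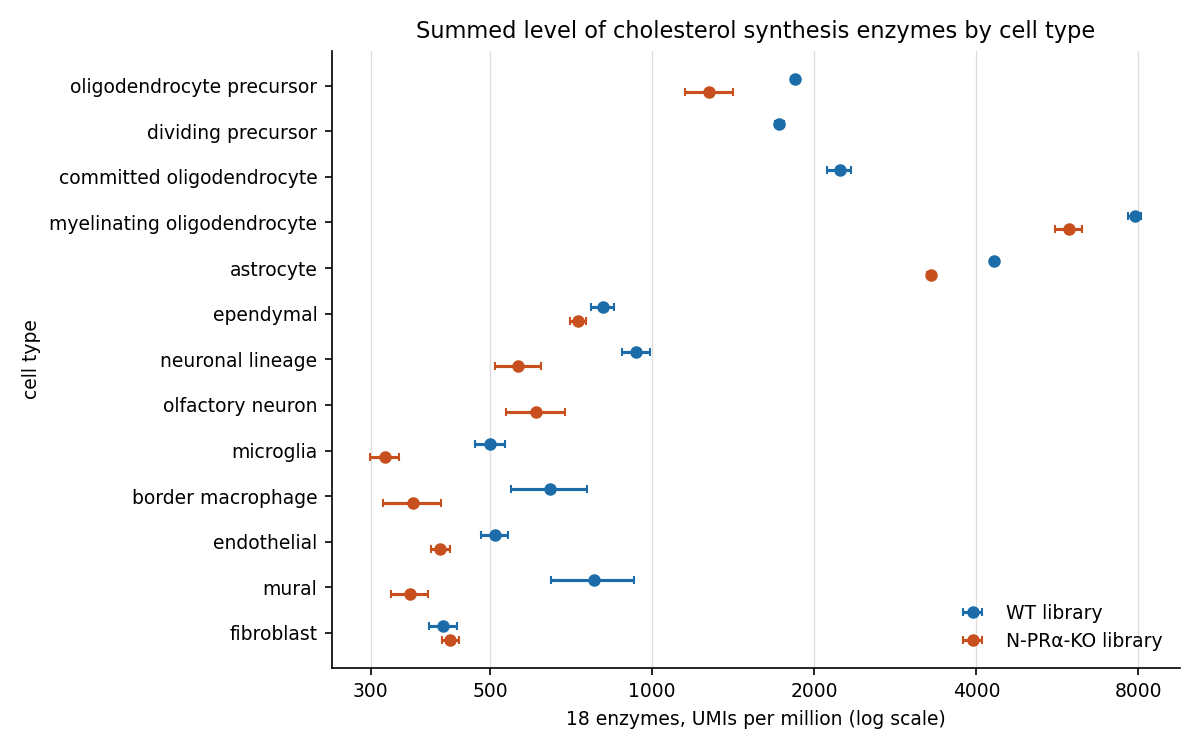
Summed level of the 18 synthesis enzymes in CPM (log axis) for each cell type in the WT (blue) and N-PRα-KO (orange) libraries, with exact 95% Poisson intervals as bars. Myelinating cells (7872 and 5933 CPM) and astrocytes (4320 and 3295 CPM) lie above all other types in both libraries.

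The order of these types was the same when every cell was thinned to 2000 UMIs. Thinned WT myelinating cells (39 cells, 10 shallower ones left out) held a mean of 15.97 enzyme UMIs each, astrocytes 8.39, committed cells 4.21, precursors 3.70 and fibroblasts 0.755. Thinned N-PRα-KO cells held 9.67 in 6 myelinating cells, 6.09 in astrocytes, 2.44 in precursors and 0.812 in fibroblasts. At least 1 UMI of Hmgcs1, which makes the substrate for mevalonate, was found in 92.3% of thinned WT myelinating cells (36 of 39, exact binomial interval 79.1 to 98.4%) and 46.2% of thinned precursors. In fibroblasts, a type low in this gene, the share was 11%. Before thinning the gene was found in 98% of myelinating cells (median 13048 UMIs), 58.6% of precursors (3041 UMIs) and 22.5% of fibroblasts (4311 UMIs).

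The mevalonate enzymes were at least 2-fold higher in WT myelinating cells than in precursors for each of the 6 that passed the level filter of 20 CPM in either stage. Hmgcs1 was 337 CPM in precursors, 380 CPM in committed cells and 1940 CPM in myelinating cells. Idi1, which interconverts the isoprenoid units, was 254, 295 and 1218 CPM in the same order, and Acat2, which joins acetyl-CoA units, was 94.2, 141 and 356 CPM. For these 3 genes the committed level lay near the precursor level and the myelinating level stood apart. Mvd, the enzyme that makes isopentenyl diphosphate, was low throughout, at 4.25 CPM in precursors and 27.4 CPM (17 UMIs) in myelinating cells, a log2 ratio of 2.69 (1.80 to 3.50). Pmvk, which phosphorylates phosphomevalonate, was 6.83 and 27.4 CPM, and Fdps, which makes farnesyl diphosphate, 8.08 and 24.1 CPM. Mvk, the mevalonate kinase, reached only 12.9 CPM (8 UMIs) and did not pass the filter. Of the last 500 bases of the Fdps transcript, 63.8% of 31-base words also occur in the predicted gene Gm3571, so the Fdps counts are uncertain.

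Of the enzymes from squalene onward, 10 of 11 were at least 2-fold higher in WT myelinating cells than in precursors. Lss, which closes squalene epoxide into lanosterol, had the highest log2 ratio of the 28 genes, 2.77 (2.57 to 2.96), from 69.6 CPM in precursors through 106 CPM in committed cells to 475 CPM. Hsd17b7, a sterol ketone reductase, followed 72.7, 148 and 459 CPM (log2 ratio to precursors 2.66, 2.46 to 2.85), and Cyp51, the lanosterol demethylase, 208, 280 and 1140 CPM (2.46, 2.33 to 2.58). Hsd17b7 was the single gene of the 28 at least 2-fold above precursors already in committed cells. Msmo1, a methylsterol monooxygenase, was 212, 318 and 784 CPM, and Sc5d, a sterol desaturase, 120, 130 and 439 CPM. Sqle, the squalene epoxidase and an early control point of the sterol steps, was 233, 224 and 473 CPM, a log2 ratio of 1.02 (0.85 to 1.20), which lies at the 2-fold limit. Tm7sf2, a sterol reductase, was lower in committed cells (13.5 CPM, 9 UMIs) than in precursors (31.3 CPM) and higher in myelinating cells (80.5 CPM). Dhcr7, the reductase that yields cholesterol in one branch of the pathway, was the exception among the tested enzymes, at 70.4 CPM in precursors, 46.4 CPM in committed and 114 CPM in myelinating cells (log2 ratio to precursors 0.70, 0.33 to 1.05). The remaining 3 enzymes, Fdft1 (which makes squalene), Nsdhl (a sterol dehydrogenase) and Ebp (a sterol isomerase), had log2 ratios to precursors between 1.02 and 2.02.

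Counted over the whole list, 19 of 26 genes that passed the filter were at least 2-fold higher and 2 at least 2-fold lower in WT myelinating cells than in precursors. Over all 7379 genes at that level 11.5% were higher by this rule and 38.5% lower, and the median log2 ratio was -0.66, against 1.92 for the 17 enzymes tested. The summed enzymes were 4.28-fold higher (log2 ratio 2.10, 2.05 to 2.14), and 2.75 on the log2 scale when centred on the median of all genes. Committed cells differed little from precursors. Their sum was 1.21-fold higher (log2 ratio 0.28, 0.20 to 0.35), with 1 gene at least 2-fold higher and 2 lower of 23, where 8.01% and 20.9% of all genes were. Over the alternatives counted for the stages, that log2 ratio lay between 0.07 and 0.50. It was 0.56 with the trend over the GC content of transcript ends, described below, removed. With doublet calls kept or with means over cells 0 genes were at least 2-fold higher (shares of all genes not given). Myelinating cells then stood 3.53-fold above committed cells (log2 ratio 1.82, 1.74 to 1.91), with 18 genes higher and 2 lower of 26 against 10.6% and 24.9% of all genes. Dividing precursors lay close to non-dividing ones (log2 ratio -0.10, -0.13 to -0.06), with 0 of 22 genes past 2-fold in either direction where 5.99% of all genes were higher and 0.789% lower.

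**Figure D2:**
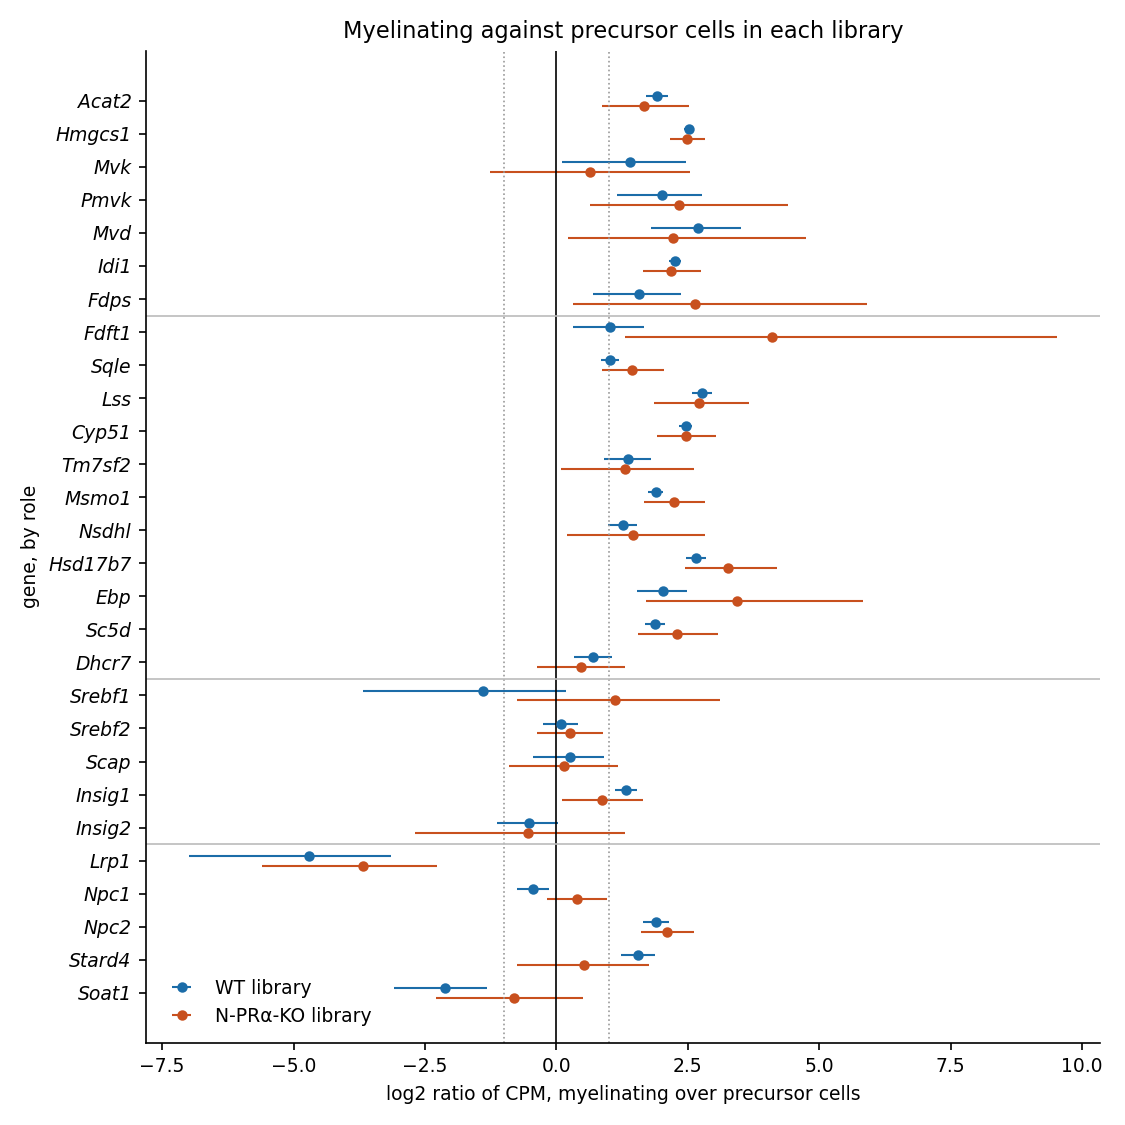
Log2 ratio of CPM in myelinating over precursor cells for each gene, grouped by role, in the WT (blue, 49 and 3681 cells) and N-PRα-KO (orange, 7 and 52 cells) libraries, with exact conditional 95% intervals and dotted lines at 2-fold. Enzymes lie to the right in both libraries, Srebf2 and Scap near 0, and Lrp1 far to the left at -4.70 and -3.69.

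Of the 49 WT myelinating cells 48 held more than 10% mitochondrial UMIs, so a limit of 10% leaves almost none of them. With that limit and new clusters, 14 cells took the name, and the enzyme log2 ratio to precursors was 0.61, with 3 genes at least 2-fold higher. When the WT library was clustered on its own, committed and myelinating cells fell together, and the ratio was 1.43 with 11 genes higher. Shares of all genes are not given for these settings. Astrocyte markers, which mark the other type with high enzyme levels, summed to 266 CPM in WT myelinating cells, 1537 CPM in precursors and 28469 CPM in astrocytes. The choroid plexus marker list summed to 1886 CPM in WT myelinating cells against 115 CPM in precursors, and 1 cell held 94.5% of its 1172 UMIs. Without that cell, left out after the data were seen, the list was at 109 CPM and the enzyme log2 ratio to precursors at 2.11 (2.06 to 2.16). In N-PRα-KO that list was at 1542 and 1551 CPM in myelinating cells and precursors, and the mural list at 1198 and 413 CPM, whose part in the enzyme ratio was not tested.

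The N-PRα-KO library also had myelinating cells above precursors, from fewer cells, and its 2 committed cells were not compared. The 7 myelinating cells had a median of 34352 UMIs, against 5721 UMIs in the 52 precursors. Whether doublets remained among the former was not tested. Between these precursors and myelinating cells the enzyme sum was 4.65-fold apart, higher in the latter (log2 ratio 2.22, 2.05 to 2.39). At least 2-fold higher were 18 of 28 genes and 1 was lower, where 14.1% and 36.2% of all genes were. For 17 of the 18 the interval lay above 0, and for Srebf1 (7 against 5 UMIs) it did not. The 2 libraries shared 17 genes at least 2-fold higher, 16 of them enzymes and the other Npc2, which is 17 of the 19 in WT and 17 of the 18 in N-PRα-KO. How far the libraries overlap over all genes is not given, so this overlap has no baseline here. Hmgcs1 was 322 CPM in N-PRα-KO precursors and 1813 CPM in myelinating cells (log2 ratio 2.49, 2.16 to 2.83), and Hsd17b7 was 47.0 and 453 CPM (3.27, 2.45 to 4.20). Cyp51 was 117 and 646 CPM, and Lss 47.0 and 307 CPM. Fdft1 had the highest ratio, 4.09, which rested on 1 precursor UMI, and its interval ran from 1.31 to 9.52. Dhcr7 again lay below 2-fold, at 94.0 and 130 CPM (0.47, -0.37 to 1.30).

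Transcripts of the sterol-sensing regulators did not follow the enzymes across the stages. Srebf2 was 117 CPM in WT precursors, 95.7 CPM in committed and 124 CPM in myelinating cells (log2 ratio of the last to the first 0.09, -0.26 to 0.42). Scap was 28.2, 19.4 and 33.8 CPM, and Insig2 62.6, 64.3 and 43.5 CPM, with both intervals of the myelinating to precursor ratio reaching 0. Insig1, itself a target of the pathway it restrains, was the exception, at 146, 241 and 365 CPM (log2 ratio 1.32, 1.12 to 1.52). In N-PRα-KO Insig1 was 94.0 CPM in precursors and 172 CPM in myelinating cells (0.87, 0.10 to 1.65), below the 2-fold limit. Srebf1, whose products act mainly on fatty acid genes, was under 20 CPM at each WT stage.

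Genes of uptake, transport and storage differed in direction along the lineage. Lrp1, a large endocytic receptor for lipoproteins and many other ligands, was 126 CPM in WT precursors, 46.4 CPM in committed cells and 4.83 CPM (3 UMIs) in myelinating cells, a log2 ratio of -4.70 (-6.98 to -3.15). In N-PRα-KO it was 269 CPM in precursors and 20.8 CPM (4 UMIs) in myelinating cells (-3.69, -5.60 to -2.28). Soat1, which esterifies cholesterol for storage, was 84.5, 53.8 and 19.3 CPM in WT (log2 ratio -2.13, -3.09 to -1.32), and 63.8 and 36.5 CPM in N-PRα-KO, where the interval reached 0. Npc2, the soluble sterol carrier of the lysosome, was 74.1, 77.8 and 275 CPM in WT and 158 and 677 CPM in N-PRα-KO. Its membrane partner Npc1 was 208, 188 and 153 CPM in WT and 195 and 255 CPM in N-PRα-KO, within 2-fold in both. Stard4, a cytosolic sterol carrier, was 48.6, 31.4 and 143 CPM in WT (log2 ratio 1.56, 1.22 to 1.88), against 43.6 and 62.5 CPM in N-PRα-KO (0.52, -0.74 to 1.77).

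Among non-dividing WT precursors the sub-clusters were not alike. In 4 of 5 the enzyme sum lay between 1905 and 2124 CPM, and in the remaining one (845 cells) it was 1276 CPM (1234 to 1319). That sub-cluster held 605 CPM of Bcas1, a gene of early differentiation, where the other 4 held 175 to 222 CPM, and 3175 CPM of Pdgfra where they held 5585 to 5961 CPM. Hmgcs1 was 228 CPM there against 343 to 398 CPM in the other 4, and Msmo1 115 against 232 to 269 CPM. Idi1 was 203 CPM there, against 259 to 285 CPM. The sum was thus lowest in the precursors with most Bcas1, and higher again in committed cells, whose Bcas1 level was 3605 CPM.

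Across all types each library had 14 of 18 enzymes highest in myelinating cells and 4 highest in astrocytes. The shares of all genes highest in these types are not given. Fdft1, Tm7sf2 and Msmo1 were highest in astrocytes in both libraries. The intervals of astrocytes and myelinating cells overlapped for Fdft1 in both libraries (22 myelinating UMIs in WT and 11 in N-PRα-KO). They also overlapped for Msmo1 in WT (825 to 867 against 716 to 857 CPM) and for Tm7sf2 in N-PRα-KO (120 to 143 against 47.6 to 135 CPM). Dhcr7 in WT and Nsdhl in N-PRα-KO were also highest in astrocytes, with overlapping intervals. Among enzymes highest in myelinating cells, the intervals overlapped those of astrocytes for Mvk, Pmvk, Fdps and Nsdhl in WT. In N-PRα-KO they did so for Mvk, Mvd and Dhcr7. Msmo1 was 846 CPM in WT astrocytes and 784 CPM in myelinating cells, and 940 and 552 CPM in N-PRα-KO. Tm7sf2 was 149 and 80.5 CPM in WT and 131 and 83.3 CPM in N-PRα-KO. Against precursors of the same library, the astrocyte enzyme sum was 2.35-fold higher in WT (log2 ratio 1.23, 1.21 to 1.26) and 2.58-fold higher in N-PRα-KO (1.37, 1.22 to 1.52). In WT 10 of 23 genes were at least 2-fold higher and 1 lower (11.6% and 18.7% of all genes), and in N-PRα-KO 12 of 26 and 1 (11.9% and 28.5%). With at most 10% mitochondrial UMIs the WT log2 ratio was 0.45.

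**Figure D3:**
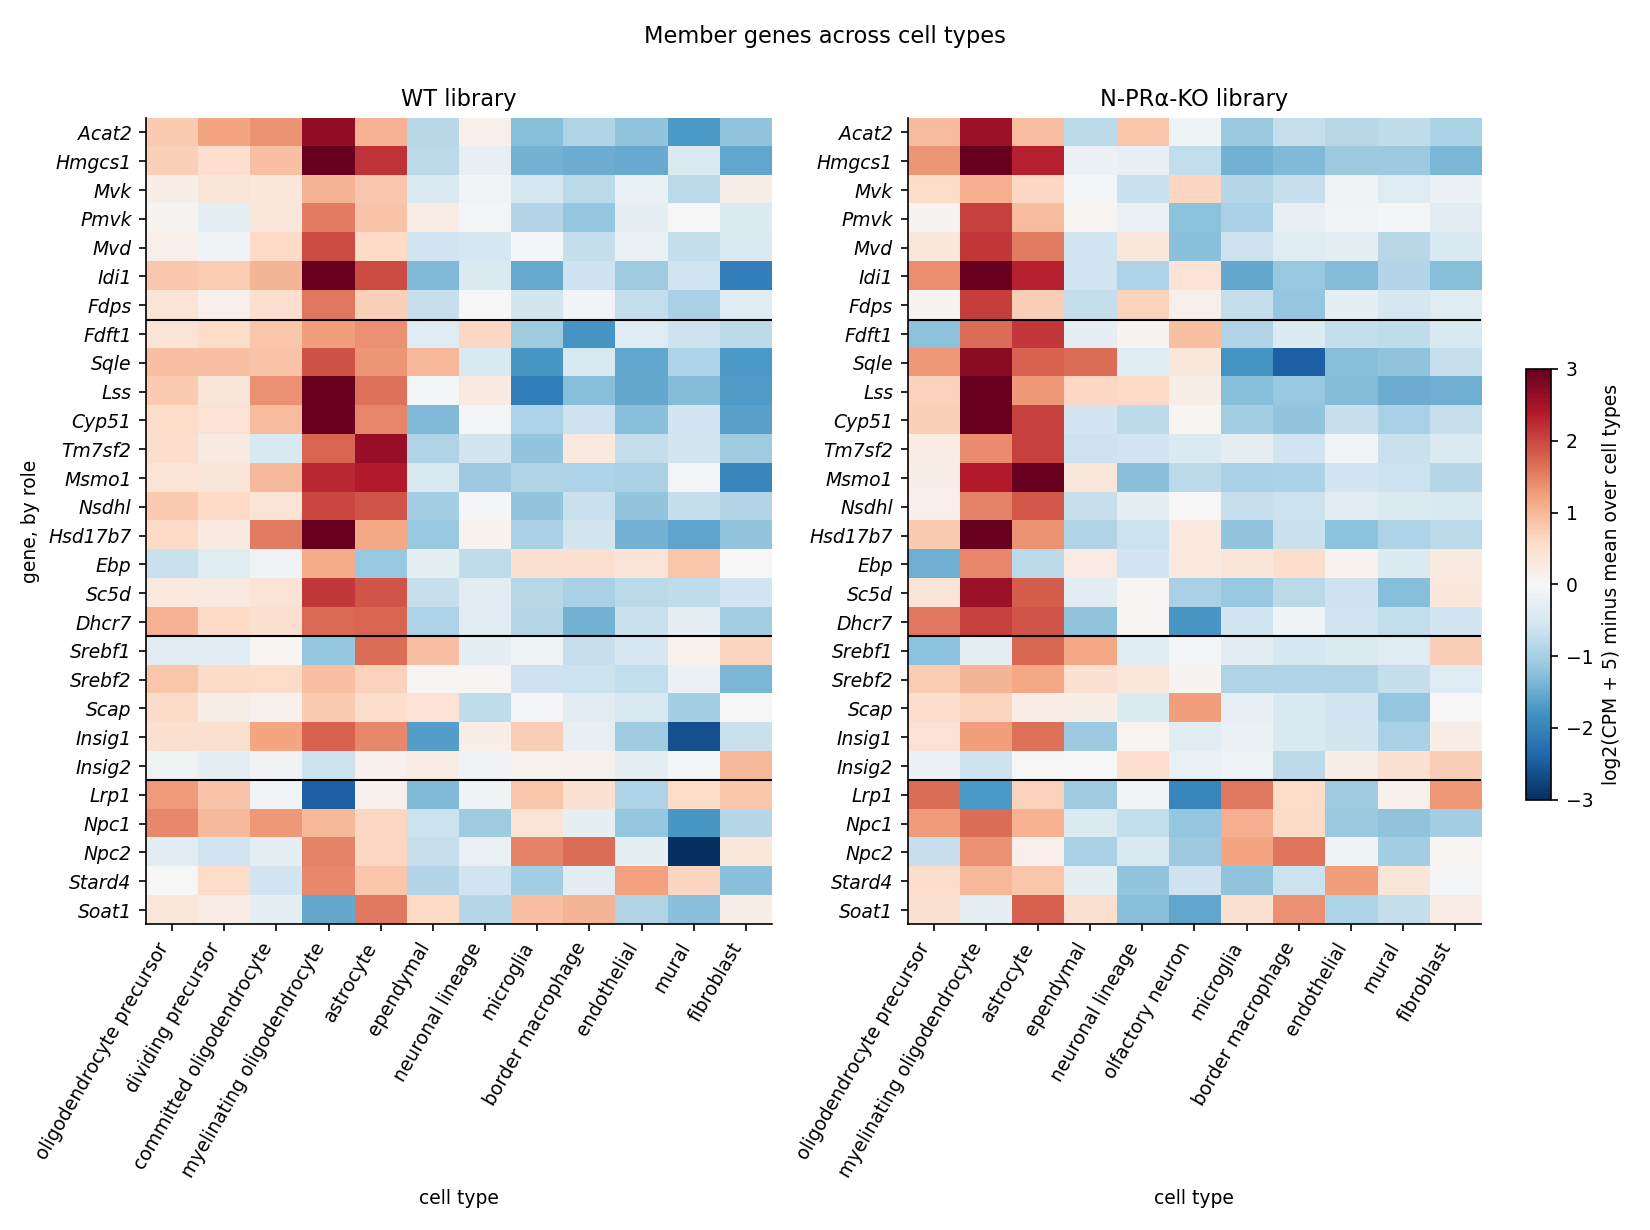
Level of each gene in each cell type of the WT (left) and N-PRα-KO (right) libraries, as log2(CPM + 5) minus the gene's mean over the types shown (red above, blue below), with black lines between roles. Most enzyme rows are reddest in myelinating cells and astrocytes, though Ebp is lowest of all types in WT astrocytes. Lrp1 is lowest in myelinating cells in WT and highest in precursors in both libraries.

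Of the 10 regulator and transport genes, some were highest in the same types as the enzymes and some elsewhere. Insig1 was highest in myelinating cells in WT (365 CPM) and in astrocytes in N-PRα-KO (227 CPM), and Srebf2 likewise (124 and 236 CPM). Scap was highest in myelinating cells in WT (33.8 CPM) and in olfactory neurons in N-PRα-KO (119 CPM), and Npc1 in precursors in WT (208 CPM) and in myelinating cells in N-PRα-KO (255 CPM). Npc2 was highest in border macrophages in both libraries (314 CPM in WT, 791 CPM in N-PRα-KO), with microglia at 275 and 590 CPM. Lrp1 was highest in precursors in both (126 and 269 CPM), and, outside the oligodendrocyte lineage, in microglia (91.7 and 250 CPM) and fibroblasts (91 and 204 CPM). Soat1 was highest in astrocytes (206 and 169 CPM) and was 138 and 126 CPM in border macrophages. Stard4 was 123 CPM in WT endothelial cells and 143 CPM in myelinating cells, and in N-PRα-KO it was highest in endothelial cells (76.4 CPM). Insig2 was highest in fibroblasts in both (145 and 61.4 CPM), and Srebf1 in astrocytes (65.4 and 162 CPM), followed by ependymal cells (35.7 and 108 CPM). Ependymal cells were low in most enzymes but not in Sqle, at 249 CPM in WT and 179 CPM in N-PRα-KO, where Hmgcs1 was 113 and 110 CPM.

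Astrocyte clusters differed in the enzymes in the same way in both libraries. In each, the cluster with most Aqp4 (the water channel of parenchymal astrocytes) was set against the cluster with most Thbs4, a pair chosen after the clusters were seen. In WT the Aqp4-rich cluster (773 cells, Aqp4 3301 CPM, median 5165 UMIs) had an enzyme sum of 5148 CPM and the Thbs4-rich one (792 cells, Aqp4 449 CPM, median 2622 UMIs) 2797 CPM. In N-PRα-KO the sums were 3930 CPM (423 cells, Aqp4 2084 CPM) and 1653 CPM (240 cells, Aqp4 241 CPM). Thbs4 was 9.78 and 340 CPM in the WT pair and 9.02 and 929 CPM in the N-PRα-KO pair. A further WT astrocyte cluster (267 cells, Aqp4 2509 CPM, median 1212 UMIs) was not in the pair. Its enzyme sum was 4460 CPM, and it held 270 CPM of the division gene Mki67. Within the pair, the Aqp4-rich sum was 1.84-fold higher in WT (log2 ratio 0.88, 0.84 to 0.92) and 2.38-fold higher in N-PRα-KO (1.25, 1.18 to 1.32). Without a level filter the interval of the ratio lay above 0 for 17 of 18 enzymes in WT and 16 of 18 in N-PRα-KO, and below 0 for none (0 in each). The share of all genes with such intervals is not given, so these counts have no baseline here. At least 2-fold higher were 6 of 23 genes in WT, where 5.81% of all genes were, and 12 of 27 in N-PRα-KO, where 6.08% were, and 0 genes of the list were lower, where 14.4% and 18.7% of all genes were. All 6 WT genes were among the 12: Cyp51, Tm7sf2, Msmo1, Nsdhl, Hsd17b7 and Dhcr7. The overlap over all genes is not given. Tm7sf2 was 209 against 40.7 CPM in WT and 165 against 43.1 CPM in N-PRα-KO, and Dhcr7 164 against 37.5 CPM and 149 against 33.7 CPM. Srebf1, Srebf2, Scap and Insig2 lay between -0.18 and 0.41 on the log2 scale in both libraries, while Insig1 was at 0.86 in WT and 1.22 in N-PRα-KO.

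**Figure D4:**
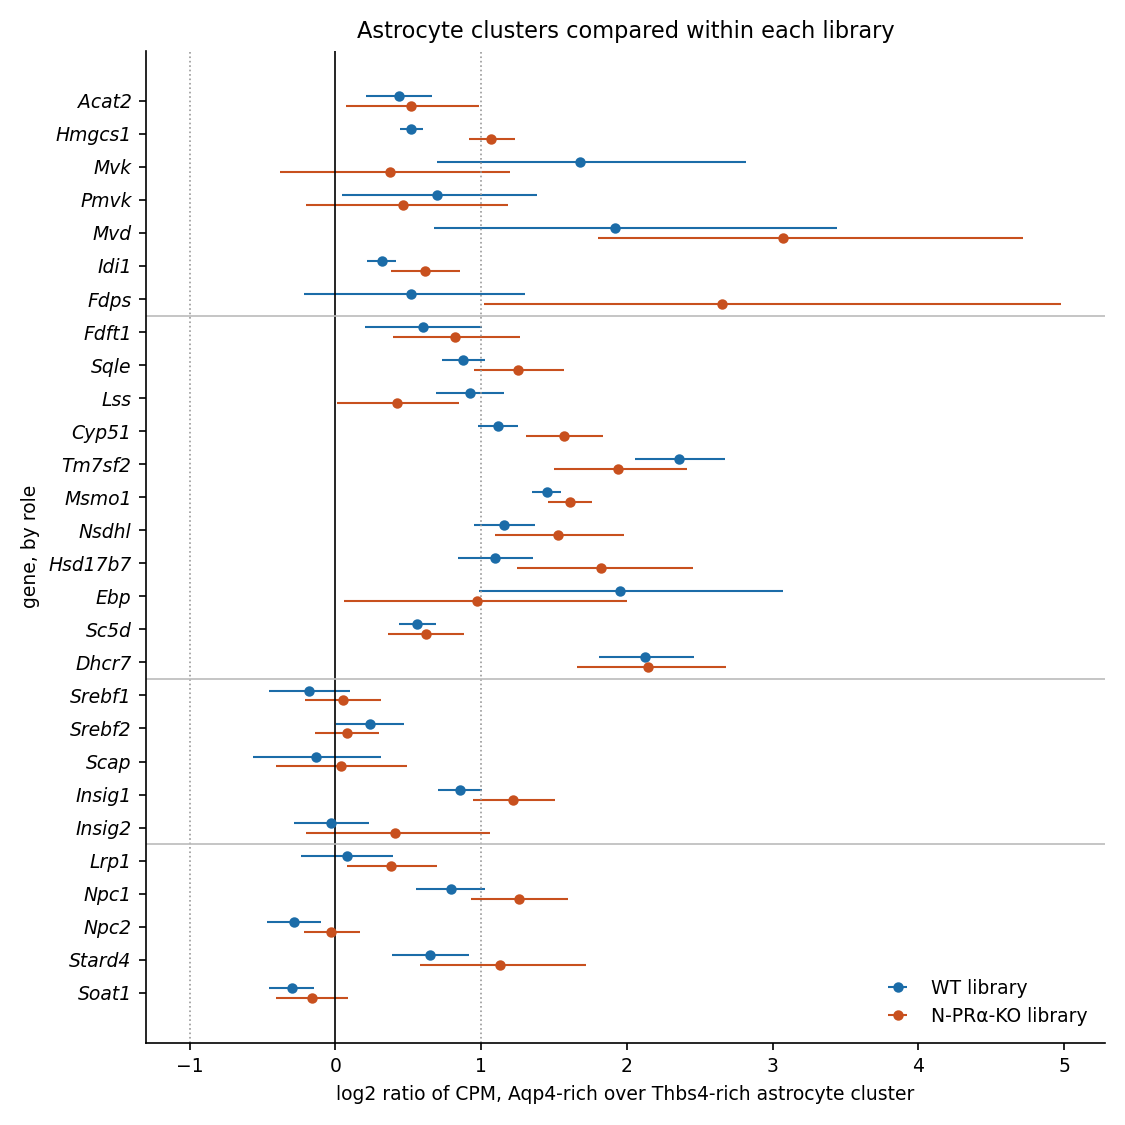
Log2 ratio of CPM in the Aqp4-rich over the Thbs4-rich astrocyte cluster for each gene, grouped by role, in the WT (blue) and N-PRα-KO (orange) libraries, with exact conditional 95% intervals and dotted lines at 2-fold. Tm7sf2 and Dhcr7 lie at 1.94 or more in both libraries, and the Srebf genes, Scap and Soat1 between -0.30 and 0.23.

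Between the libraries, the enzyme sum was lower in N-PRα-KO than in WT in 8 of the 9 cell types with at least 50 cells in both. On the log2 scale N-PRα-KO minus WT was -0.53 in precursors (-0.68 to -0.38), -0.39 in astrocytes (-0.42 to -0.36) and -1.13 in mural cells (-1.41 to -0.85, 53 WT cells), and it was 0.04 in fibroblasts (-0.06 to 0.15), which became -0.10 with doublet calls kept. Over all genes, the ratio went up with the GC content of the last 500 transcript bases in each of the 9 types. In astrocytes the median log2 ratio was -0.65 in the quintile of genes poorest in GC and 0.89 in the richest quintile. With that trend removed the enzyme ratio was -0.08 in astrocytes, 0.00 in ependymal cells, -0.41 in precursors and -1.03 in mural cells. Genotype cannot be told apart from preparation, pipeline run, age or sex here. Different clusters held most of the precursors, astrocytes, ependymal cells, microglia, endothelial cells and fibroblasts of the 2 libraries.

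**Figure D5:**
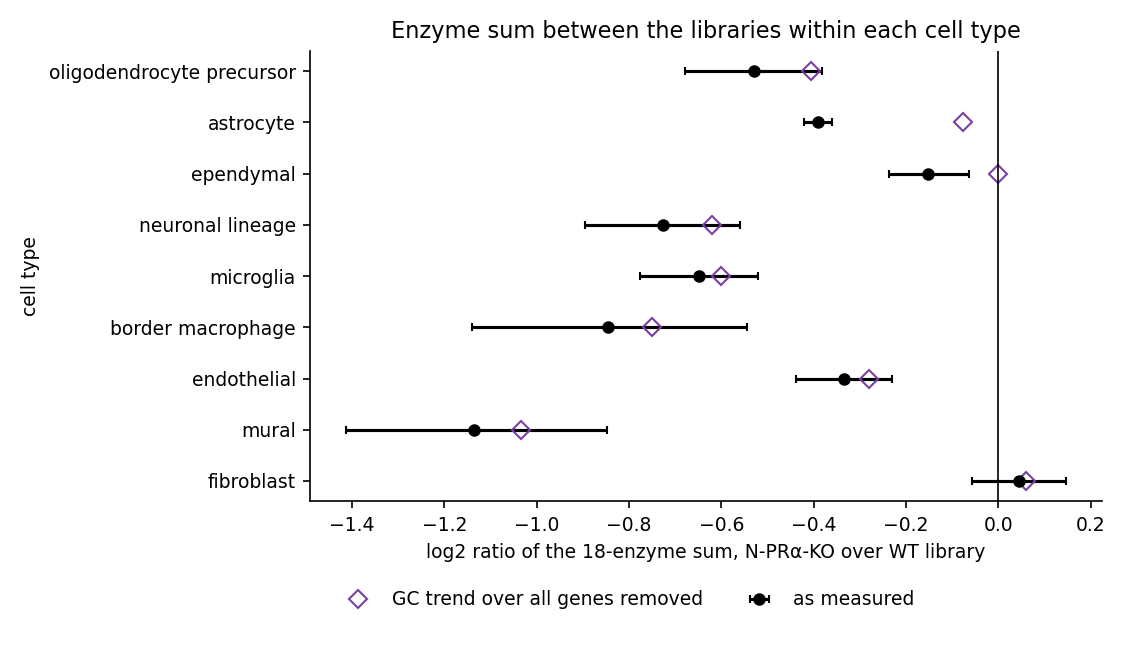
Log2 ratio of the summed 18 enzymes in N-PRα-KO over WT for 9 cell types, as measured (black, exact conditional 95% interval) and after removal of the trend with GC content over all genes (open diamonds). Values lie below 0 in 8 of 9 types as measured, and the astrocyte and ependymal values move to -0.08 and 0.00 once the trend is removed.

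Single genes of the whole list, regulators and uptake genes included, went both ways between the libraries. In precursors 4 of 22 genes were at least 2-fold higher and 2 lower in N-PRα-KO, near the shares of all genes (18.1% and 8.52%). In astrocytes the counts were 7 of 26 and 2 (14.1% and 7.45% of all genes). With the GC trend removed these counts were 0 and 1 in precursors and 1 and 1 in astrocytes. Shares of all genes with the trend removed are not given here, so the change in these counts is not a result about the listed genes. In ependymal cells 5 of 19 genes were higher and 1 lower (14.4% and 6.05% of all genes), in endothelial cells 4 of 19 and 2 (17.2% and 9.45%), and in fibroblasts 5 of 18 and 1 (15.9% and 8.54%). Lower genes were more frequent in the neuronal lineage (4 of 23 higher and 7 lower, 18.3% and 8.59% of all genes) and in microglia (5 of 19 and 8, 16.3% and 9.39%). The same held in border macrophages (4 of 22 and 6, 19.5% and 15.8%) and mural cells (2 of 18 and 8, 17.2% and 14.0%). The enzymes alone stand beside the same shares of all genes. Of these, 1 of 13 was higher and 1 lower in precursors, and 3 of 16 and 1 in astrocytes. Their counts were 0 of 9 and 0 in ependymal cells, 0 of 8 and 0 in fibroblasts and 1 of 9 and 2 in endothelial cells. They were 0 of 13 and 5 in the neuronal lineage and 1 of 9 and 5 in microglia. In border macrophages they were 1 of 12 and 4, and in mural cells 0 of 9 and 7. Idi1, whose transcript end holds 33.2% GC, was lower in all 9 types, with log2 ratios from -2.32 to -0.92 as measured and from -1.82 to -0.37 without the trend. Sqle was also lower in all 9, from -3.95 in border macrophages (4 UMIs against 20) to -0.13 in fibroblasts. Npc2 was higher in all 9 types, from 0.96 to 4.35 as measured and from 0.61 to 3.97 without the trend, the top value resting on 1 WT mural UMI. Srebf1 was higher in each of the 8 types where it passed the filter, from 0.87 to 1.83 and from 0.53 to 1.49 without the trend. Scap was higher in the 8 types tested (1.04 to 2.07), and Srebf2 in all 9 (0.11 to 1.84), but without the trend Srebf2 (54.8% GC) was higher in 3 and lower in 6. Insig2 was lower in all 9 (-2.10 to -0.34), and in 8 of 9 without the trend.

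Other lipid genes were counted by the same rule. Of 12 listed genes of fatty acid synthesis 11 were tested between WT myelinating cells and precursors, and 5 were at least 2-fold higher and 0 lower (11.5% and 38.5% of all genes), with a median log2 ratio of 0.96 (-0.66 over all genes). Elovl6, a fatty acid elongase, was 185 CPM in precursors, 178 CPM in committed and 909 CPM in myelinating cells. Acss2, which makes acetyl-CoA from acetate, was 26.3, 23.9 and 185 CPM, and Acly, which makes it from citrate, 83.7, 100 and 269 CPM. Elovl1, an elongase of very long chains, was 6.00, 19.4 and 61.2 CPM. The malic enzyme gene Me1 was lower in committed cells (79.2 CPM) than in precursors (207 CPM) and was 187 CPM in myelinating cells.

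In the list of sterol efflux and turnover, 2 genes were at least 2-fold higher and 2 lower of the 5 tested in WT myelinating cells against precursors, beside 11.5% and 38.5% of all genes. Osbpl1a, a sterol-binding protein of late endosomes, was 69.3 CPM in precursors, 525 CPM in committed and 729 CPM in myelinating cells, so that it stood high before the enzymes did. Apod, a lipocalin of the apolipoprotein group, was 10.8, 16.4 and 251 CPM. Abcg1, a sterol exporter, was 83.2, 13.5 and 3.22 CPM (2 UMIs), the log2 ratio of the last to the first being -4.69 (-7.74 to -2.84). In the list of lipoprotein receptors and lysosomal lipid handling, 2 were higher and 2 lower of 8, beside the same shares of all genes. Scarb2, a lysosomal membrane protein, was 202, 504 and 513 CPM, whereas Lrp8, a receptor for lipoproteins and reelin, was 82.0, 12 and 20.9 CPM and Scarb1, a receptor for high-density lipoprotein, 33.9, 23.9 and 8.05 CPM. Of the sterol carriers and other isoprenoid enzymes 1 was higher and 4 lower of 9, which is near the shares of all genes. Fntb, a farnesyltransferase subunit, was 10.7, 20.9 and 66.0 CPM, and Gramd1b, a sterol carrier at membrane contacts, 27.6, 15 and 3.22 CPM (2 UMIs). Erlin2, which takes part in the breakdown of sterol-regulated proteins, was 124, 40.4 and 46.7 CPM.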

How the data were processed

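Both deposited tables hold raw UMI counts, 1 row a cell and 1 column a gene. They come from the BD Rhapsody WTA pipeline (1.10 for N-PRα-KO, 1.10.1 for WT) on GRCm38 with GENCODE M19, per the file headers. Which aligner it ran: not given in the sources used here. Cells under 300 genes or over 25% mitochondrial UMIs were left out. Scrublet in scanpy 1.11.5 called 10 N-PRα-KO cells (0.238%, so that doublets were hardly removed there) and 174 WT cells (1.73%), which were removed. The 28 genes and the other lipid genes were left out of the 2000 variable genes per library, and 30 components, 20 neighbours and Leiden resolution 1 (leidenalg 0.10.2) gave 31 clusters, named from marker lists. The oligodendrocyte clusters were clustered again (1000 variable genes, 20 components), which gave 13 sub-clusters and the 3 stages. Sub-cluster 12 (40 WT cells) stayed unnamed.

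UMIs were summed per type and library and given as CPM with exact Poisson 95% intervals, and log2 ratios with exact conditional intervals. "At least 2-fold" required 20 CPM in either side, and a count of 0 was set to 3 for ratios. The ratio code was tested on simulated data. Trends with GC content (GENCODE M21 transcripts) were fitted by lowess (statsmodels 0.14.6). All 28 genes are named. Per comparison the up to 8 with the largest ratios are given in full, and from the other lists the 4 with the largest WT ratio in committed or myelinating cells. A few genes named by that rule are left out of the text. Genes, lists and rules were chosen with earlier results of these data known. Alternatives were tried for the cell filters, clustering, depth, scale and level filter. The mitochondrial split of fixed types, a sub-cluster resolution of 1.5 and the myelinating cell left out were added after the data were seen.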

Additional observations from a re-analysis of the deposited data

How the results depend on the processing

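Of 337 values computed under alternatives, 280 stayed within the main interval or within 1.5 times the main count, and 57 did not. Of those 337 values 165 were log2 ratios, and 1 of these changed sign, that of fibroblasts between libraries with doublet calls kept. Removal of the GC trend was counted there only for ratios between libraries. For the enzyme sum of WT stages it gave 0.56 for committed over precursor, 2.27 for myelinating over committed and 2.87 for myelinating over precursor. Dividing over non-dividing precursors went from -0.10 to 0.0048, a change of sign not in that count. It gave 2.91 for N-PRα-KO myelinating over precursor, and 1.58 (WT) and 1.88 (N-PRα-KO) for astrocytes over precursors. Log2 ratios below are of the enzyme sum, and counts of genes below stand without the shares of all genes. With at most 10% mitochondrial UMIs, WT myelinating over precursor cells was 0.61 (3 genes at least 2-fold higher), astrocytes over precursors 0.45 and dividing over non-dividing precursors -0.21. N-PRα-KO over WT was then -0.54 in astrocytes (3 genes higher) and -1.02 in the neuronal lineage. With doublet calls kept, committed over precursor cells was 0.12 (0 genes higher), myelinating over precursor cells 1.97, dividing over non-dividing -0.24 and astrocytes over precursors 1.1, and N-PRα-KO over WT was -0.91 in microglia and -0.10 in fibroblasts. Libraries clustered apart gave 1.43 and 11 genes for WT myelinating over precursor cells, and 2 genes lower in N-PRα-KO. Resolution 2 gave 0.15 for fibroblasts between libraries. With means over cells, committed over precursor was 0.066 (0 genes higher), myelinating over committed 1.97, myelinating over precursor 2.04, astrocytes over precursors 1.17, and N-PRα-KO over WT -0.44 in astrocytes and -0.23 in endothelial cells.

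Thinned to 2000 UMIs, committed over precursor was 0.19 (2 genes higher), myelinating over committed 1.92 (0 lower), myelinating over precursor 1.99 in N-PRα-KO (0 lower) and astrocytes over precursors 1.18 in WT. Thinned N-PRα-KO over WT was -0.46 in astrocytes (4 genes lower), -0.25 in ependymal cells, -0.96 in the neuronal lineage and -0.49 in border macrophages, with 4 genes lower in precursors. Centred on the median of all genes, the stage ratios were 0.50 for committed over precursor (1 gene lower), 2.23 for myelinating over committed, 2.75 (WT) and 2.81 (N-PRα-KO) for myelinating over precursor and -0.0049 for dividing cells, and astrocytes between libraries were at -0.24. Without mitochondrial UMIs in the totals, WT astrocytes over precursors were at 1.26, and 4 genes were lower in N-PRα-KO precursors. With at least 1000 genes per cell, border macrophages between libraries were at -0.53, and 1 gene was lower in precursors. At 50 CPM, 1 gene was lower in committed cells than in precursors and 1 in myelinating than in committed cells. With the GC trend removed, N-PRα-KO over WT was -0.078 in astrocytes (1 gene higher, 1 lower) and -0.0008 in ependymal cells, with 0 genes higher and 1 lower in precursors. Apart from the mitochondrial limit, described above, the causes were not tested.

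A limit of 10% mitochondrial UMIs gave no committed class, and libraries clustered apart gave no committed class either, so no value for it. No paired analysis was possible because each genotype has 1 library and the labels carry no replicate numbers. N-PRα-KO stages rest on 7 and 52 cells, where 20 CPM in myelinating cells is about 4 UMIs.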
